A study of Mus musculus with 40 samples.

Results

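Potassium and calcium channel genes were examined in aortas and kidneys of mice fed a standard fat diet (SFD) or a high fat diet (HFD), with or without the epidermal growth factor receptor (EGFR) in endothelial cells. The genes were the protein-coding entries whose symbol begins with Kcn or with Cacna, Cacnb or Cacng and whose mean level was at least 0.5 CPM (the count of the gene scaled to a common library total) in the tissue. Of 120 genes with such a symbol, 71 met this rule, 56 in aorta and 57 in kidney, among 21849 and 21856 protein-coding entries. Of these, 42 were members in both tissues, 14 in aorta alone and 15 in kidney alone. The 71 comprised 56 potassium channel genes and 15 calcium channel genes. Just inside the threshold were Cacna1e in aorta with 0.502 CPM and Kcne3 in kidney with 0.607 CPM, and just outside it were Kcna1 in aorta with 0.493 CPM and Kcnip4 in kidney with 0.499 CPM. A further 10 genes, Cacna1f, Cacna2d2, Cacng3, Kcna10, Kcnd1, Kcne1l, Kcng4, Kcnj1, Kcnj5 and Kcnk1, were listed at 0 in every library of both tissues. Every gene on chromosomes 9 and X was also listed at 0, so that Cacna1f, Cacna2d2, Kcnd1, Kcne1l, Kcnj1 and Kcnj5, which lie there, could not be assessed. Zeros on other chromosomes are not read as absence either, since Hsd11b2, a defining gene of renal principal cells, was listed at 0 in every kidney.

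Potassium channels let potassium leave the cell and hold the membrane potential negative, whereas voltage-gated calcium channels open on depolarization and admit the calcium that drives contraction. In the vessel wall, potassium channels of smooth muscle oppose calcium entry and tone. In the kidney, inwardly rectifying and leak potassium channels of the tubule recycle potassium and set the voltage for salt transport.

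RNA was sequenced from 40 libraries, 20 per tissue, with 5 in each of 4 groups per tissue. EC-EGFR-KO mice carried floxed Egfr alleles on a C57BL/6 background and Tek-cre, which the Tie2 promoter drives in endothelium and also in blood cell lineages; EC-EGFR-WT controls carried the Cre without loxP sites. SFD supplied 10% and HFD 60% of energy as fat for 18 weeks from an age of 6 weeks. RNA came from tissue rather than sorted cells, so that fewer cells of a type and less RNA per cell cannot be told apart. Egfr itself, which other cells of both tissues also express, had 34.2 to 53.2 CPM in KO and 29.4 to 58.6 CPM in WT aortas under SFD, and 47.3 to 57.1 and 44.8 to 63.8 CPM in the kidneys. Under HFD it had 36.1 to 53.3 CPM in KO and 35.0 to 49.9 CPM in WT aortas, and 34.1 to 61.9 and 22.2 to 52.6 CPM in the kidneys. Its levels thus overlapped between the genotypes in every comparison. Whole-gene counts of unsorted tissue did not show the deletion, which removes exon 1 in endothelium.

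Libraries held 17520161 to 36452741 counts in aorta and 19643033 to 48833447 in kidney. The smooth muscle marker Myh11 reached 7679 to 11414 FPM (CPM after normalization for library composition) in aorta, and the tubular marker Umod 1660 to 2850 FPM in kidney, while Umod was listed at 0 in aorta. The WT SFD aorta R-1 and the KO SFD aorta R-12 differed by less than sampling noise (median chi-square over genes 0.0277, next lowest pair 1.60), as did the KO HFD kidney a1 and the WT HFD kidney a12 (0.0269, next lowest 1.62). The labels put the libraries of each pair in different genotypes. The diet and genotype comparisons were therefore also run without both libraries of a pair, and the tissue comparison was run with all libraries only. Kcnab2, Kcnj8, Kcnj16 and Kcng1 in both genotypes and Kcnt1 in KO kidneys passed for HFD in either case. The summed level of the channel genes ranged from 1409 to 2247 CPM in aorta.

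Promoter sequences are shown for channel genes whose level distinguished the tissues or responded to diet. Kcnab2 and Kcnip2 rose in kidney under HFD, and Kcnj8 fell there. Kcnj15 was among the most abundant members in kidney, and Kcnmb1 was the most abundant member in aorta per length. The sequences are RefSeq windows of 300 bases, 250 before and 50 after an annotated start, on GRCm38.p6, written along the strand of the gene. The windows are chr4:152477500-152477799 for Kcnab2 (minus strand), chr6:142571565-142571864 for Kcnj8 (minus), chr19:45816014-45816313 for Kcnip2 (minus), chr16:95257308-95257607 for Kcnj15 (plus) and chr11:33962763-33963062 for Kcnmb1 (plus). Capitals mark matches on either strand to the GC box GGGCGG, the TATA box TATAAA and the CCAAT box CCAAT; no marked matches overlap.
Kcnab2: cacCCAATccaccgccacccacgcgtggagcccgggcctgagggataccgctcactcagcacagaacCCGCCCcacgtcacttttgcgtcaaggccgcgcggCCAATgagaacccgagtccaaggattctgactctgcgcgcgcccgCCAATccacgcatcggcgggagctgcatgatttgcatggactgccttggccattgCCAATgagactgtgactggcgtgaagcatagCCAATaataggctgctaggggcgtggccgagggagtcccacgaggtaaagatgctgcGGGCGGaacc
Kcnip2: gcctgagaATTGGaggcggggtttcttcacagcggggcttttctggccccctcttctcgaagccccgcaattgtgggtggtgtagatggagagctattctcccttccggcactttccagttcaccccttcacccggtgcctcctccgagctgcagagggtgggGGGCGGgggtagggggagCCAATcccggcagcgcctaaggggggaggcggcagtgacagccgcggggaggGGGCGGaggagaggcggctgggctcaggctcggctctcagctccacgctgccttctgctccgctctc
Kcnj8: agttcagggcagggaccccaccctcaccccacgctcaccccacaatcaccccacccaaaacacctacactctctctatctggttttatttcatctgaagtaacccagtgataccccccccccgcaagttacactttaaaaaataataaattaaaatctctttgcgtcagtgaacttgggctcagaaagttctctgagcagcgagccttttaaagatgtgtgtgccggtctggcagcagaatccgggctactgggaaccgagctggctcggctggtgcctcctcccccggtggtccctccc
Kcnj15: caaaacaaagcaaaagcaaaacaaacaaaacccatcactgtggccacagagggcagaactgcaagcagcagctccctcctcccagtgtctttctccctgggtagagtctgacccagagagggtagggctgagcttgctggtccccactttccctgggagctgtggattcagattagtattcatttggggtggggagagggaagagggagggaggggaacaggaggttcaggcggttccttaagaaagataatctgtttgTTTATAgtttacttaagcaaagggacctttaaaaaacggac
Kcnmb1: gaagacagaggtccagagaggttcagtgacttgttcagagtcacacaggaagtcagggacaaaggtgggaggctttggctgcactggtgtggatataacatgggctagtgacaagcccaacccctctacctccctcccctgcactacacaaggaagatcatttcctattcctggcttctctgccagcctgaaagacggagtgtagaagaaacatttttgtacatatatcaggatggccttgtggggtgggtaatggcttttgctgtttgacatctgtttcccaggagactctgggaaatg
Kcnab2 has 3 annotated windows, of which the first listed is shown, and gene counts do not tell which start was used. Its window held 5 CCAAT and 2 GC box matches, that of Kcnip2 2 of each, and that of Kcnj15 1 TATA match at position 9 after the start. The windows of Kcnj8 and Kcnmb1 held none of the motifs searched, which also included the E-box CACGTG, the nuclear receptor site AGGTCA, the steroid receptor site AGAACA and the CArG box. In all promoters these had shares of 7.24%, 16%, 19% and 1.57%. Of 27025 promoters of this length, 37.9% held CCAAT, 35.9% the GC box and 14.2% TATAAA. Among the 51 channel members with a promoter entry, 33.3% held CCAAT, 51% the GC box and 3.92% TATAAA. Their median GC content was 59.7% against 52.7% over all promoters. All promoters means 1 window per listed gene symbol, without regard to gene type or expression here. The members are protein-coding and expressed, so nothing is read from these differences.

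The channel repertoire differed between the tissues. To set genes side by side, levels were divided by the kilobases of all annotated exons of a gene. This length can exceed that of the transcripts present, so the ranking is approximate. The highest level of a member in aorta was that of Kcnmb1, with 75.0 CPM per kb. Kcnmb1 encodes the smooth muscle beta subunit of the large-conductance calcium-activated potassium channel. It was followed by Kcnh2, an ether-a-go-go related channel, with 38.9, Kcnj8, the pore of the vascular ATP-sensitive potassium channel, with 32.9, and Kcnab1, a beta subunit of Shaker channels, with 30.9 CPM per kb. Kcne4, a modulatory subunit, had 20.8 CPM per kb. Cacng7, a gamma subunit gene, had 16.2, Cacna2d1 and Cacnb3, which encode auxiliary calcium channel subunits, 14.6 and 9.80, and Kcnc4, a fast-inactivating voltage-gated channel, 11.9 CPM per kb.

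**Figure D1:**
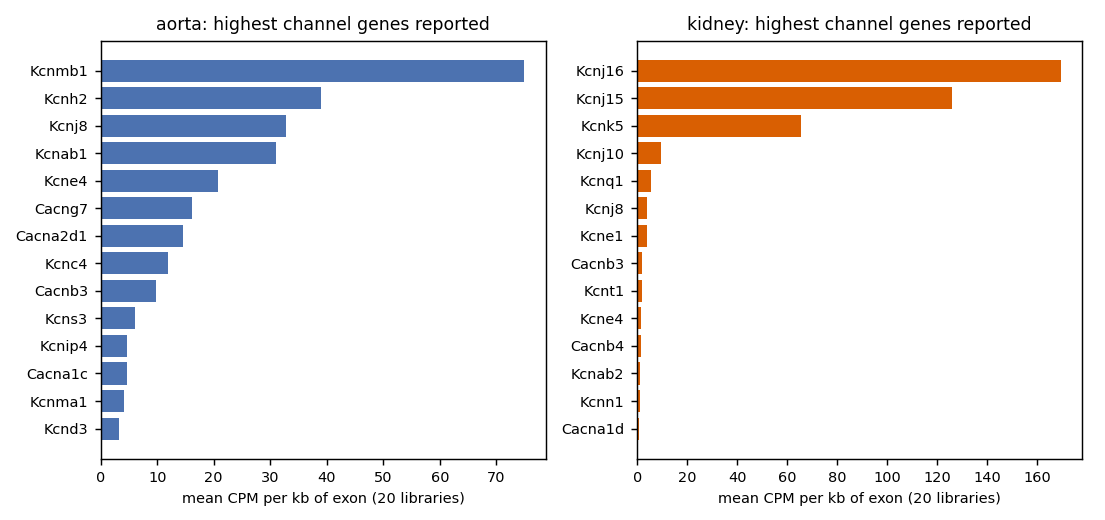
Mean level of the highest channel genes reported here in aorta (left) and kidney (right), in CPM per kilobase of exon over 20 libraries on linear axes. Kcnmb1 led in aorta with 75.0 CPM per kb, and Kcnj16 in kidney with 169.5 CPM per kb.

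In kidney, 3 genes stood above the rest. Kcnj16, which forms basolateral channels of the distal nephron with Kcnj10, had 169.5 CPM per kb, Kcnj15, a channel of the proximal tubule, 125.8, and Kcnk5, a leak channel of the proximal tubule, 65.4 CPM per kb. Kcnj10 followed with 9.75 and Kcnq1, whose product associates with that of Kcne1, with 5.63 CPM per kb. Lower levels were those of Kcnj8 with 4.08, Kcne1 with 3.80, Cacnb3 with 2.12 and Kcnt1 with 1.94 CPM per kb. In a joint analysis of WT SFD aortas and kidneys by edgeR's quasi-likelihood test, 64 of 71 members differed (90.1%; 75.2% of all genes tested), 42 with the higher level in aorta and 22 in kidney. The rule itself took 14 members for their level in aorta alone and 15 for that in kidney alone, so nothing is read from this share. Tissue, dissection and sequencing table coincide in this comparison and cannot be told apart.

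Kcnmb1 had a mean of 300.1 FPM in aorta and 0.658 FPM in kidney (log2 difference 8.83, standard error 0.28, adjusted p = 1.21e-25). Kcnh2 was 114.7-fold higher in aorta. Cacna1c, the pore of the vascular L-type calcium channel, was 48.2-fold and its partner Cacna2d1 38.3-fold higher there, and Kcnma1, the pore that Kcnmb1 modulates, 39.9-fold. Kcnj8 was 6.09-fold higher in aorta. Towards kidney, Kcnk5 was 438.4-fold and Kcnj15 51.9-fold higher, and Kcnj16 had 646 FPM against 0.0697 FPM in aorta, where all 20 libraries held only 9 reads of it. Kcnt1, a sodium-activated potassium channel, was 21.1-fold higher in kidney. Cacna1d, an L-type pore, did not differ beyond the spread (log2 difference 0.40, standard error 0.21, adjusted p = 0.0795), nor did Kcnab2 (-0.59, standard error 0.38, adjusted p = 0.166).

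HFD changed part of the renal channel genes in both genotypes. In WT kidneys 5 of 57 members passed an adjusted p of 0.05 (8.77%, against 6.71% of all 15943 genes tested), 2 higher and 3 lower (3.03% and 3.68% of all genes). In KO kidneys 8 passed (14%, background 6.34%), 2 higher and 6 lower (3.16% and 3.18%). Averaged over genotype, 10 passed (17.5%, background 16.4%), 3 higher and 7 lower (7.7% and 8.7%), a share close to that of all genes. At an unadjusted p under 0.05 were 15, 15 and 20 members (19.4%, 19.5% and 29.9% of all genes). By the thresholds of the study, which add a fold change over 1.5 and a mean over 5 FPM, 2, 3 and 3 members passed (2.18%, 2.16% and 2.92% of all genes). The diet groups did not overlap for 5 members in WT (8.77%, against 6.64% of all genes) and 8 in KO (14%, against 7.81%). The median log2 fold change of the members averaged over genotype was 0.00 and that of all genes 0.00. Without both near-identical libraries, 4 members passed in WT (7.02%, against 6.8% of all genes), 5 in KO (8.77%, against 5.49%) and 10 in the average (17.5%, against 14.7%), where Kcnab1 entered and Kcnma1 left. Leaving out replicates a1, a3 or a6 alone also brought the KO count to 5. In the same direction in WT and KO were 45 of 57 members (78.9%, against 72.7% of all genes), and 41 without the near-identical pair (71.9%, against 67.7%).

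Kcnab2, the beta2 subunit of Shaker channels, showed the highest fold change of all members. It had 2.26, 4.17, 2.27, 3.42 and 2.98 FPM in WT SFD kidneys and 5.39, 10.3, 9.46, 8.14 and 12.3 FPM in WT HFD kidneys. In KO kidneys it had 2.63, 2.81, 4.98, 2.90 and 3.41 FPM under SFD and 10.3, 8.90, 10.5, 12.0 and 13.2 FPM under HFD. All HFD kidneys lay above all SFD kidneys of either genotype. HFD thus raised Kcnab2 with a log2 fold change of 1.60 in WT (standard error 0.22, adjusted p = 0.000118) and 1.71 in KO (standard error 0.22, adjusted p = 5.33e-05). Kcnab1, which encodes the related subunit, had a log2 fold change of 0.45 averaged over genotype (adjusted p = 0.0504).

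Kcnj16, the most abundant member in kidney per kb, also rose. Its levels were 574, 587, 616, 593 and 645 FPM in WT SFD kidneys and 901, 710, 787, 757 and 841 FPM in WT HFD kidneys. In KO kidneys they were 544, 482, 549, 479 and 573 FPM under SFD and 710, 696, 840, 598 and 828 FPM under HFD. Diet groups did not overlap within a genotype, although the KO HFD kidney with 598 FPM lay within the range of WT SFD. The log2 fold changes were 0.41 in WT (standard error 0.09, adjusted p = 0.0076) and 0.48 in KO (standard error 0.09, adjusted p = 0.00172). Kcnj10, its partner, had a log2 fold change of 0.21 averaged over genotype (adjusted p = 0.12), and the proximal Kcnj15 one of -0.19 (adjusted p = 0.155). Of the 5 members with the highest level per kb in kidney, Kcnj16 was the one that passed. Markers of the distal convoluted tubule moved with diet as well. Of 4 markers, 1 was higher in each genotype and 2 in the average, with Pvalb, a calcium-binding protein, at log2 fold changes of 1.27 in WT and 1.63 in KO and the sodium chloride cotransporter gene Slc12a3 at 0.43 in the average. The list summed to 1001 to 1582 FPM in SFD and 1186 to 2170 FPM in HFD kidneys, and its marker score, the mean centred log2(FPM + 0.5) of genes typical of a cell type, was higher in every HFD than in every SFD kidney. No r over both diets is therefore given for this score. Within a diet, its r with Kcnj16 was -0.066 in SFD and -0.0546 in HFD kidneys, and with Kcnab2 0.378 and -0.525 (n = 10 and 9, no test). Macrophage markers, of which 6 of 7 were higher in the average, summed to 103 to 166 FPM in SFD and 135 to 196 FPM in HFD kidneys. Kcnab2 ran with their score over 19 kidneys (r = 0.731, permutation p = 0.00028, adjusted p = 0.0117, rho = 0.7, permutation p = 0.00119). Without the 2 farthest kidneys r was 0.648 (adjusted permutation p = 0.126), but within SFD it was 0.767 and within HFD -0.321. The permutations ran over both diets together, and Kcnab2 and most of these markers rose under HFD. The part of both marker lists in the rise of either gene was not tested.

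Kcnip2, an accessory subunit of transient potassium channels, passed in the average over genotype. It ranged from 0.745 to 1.88 FPM in WT SFD and from 1.75 to 2.48 FPM in WT HFD kidneys, where the groups overlapped, and from 0.798 to 1.68 FPM in KO SFD and from 1.71 to 2.69 FPM in KO HFD kidneys, where they did not. The averaged log2 fold change was 0.75 (standard error 0.17, adjusted p = 0.00475), with 18 to 88 reads per library.

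**Figure D2:**
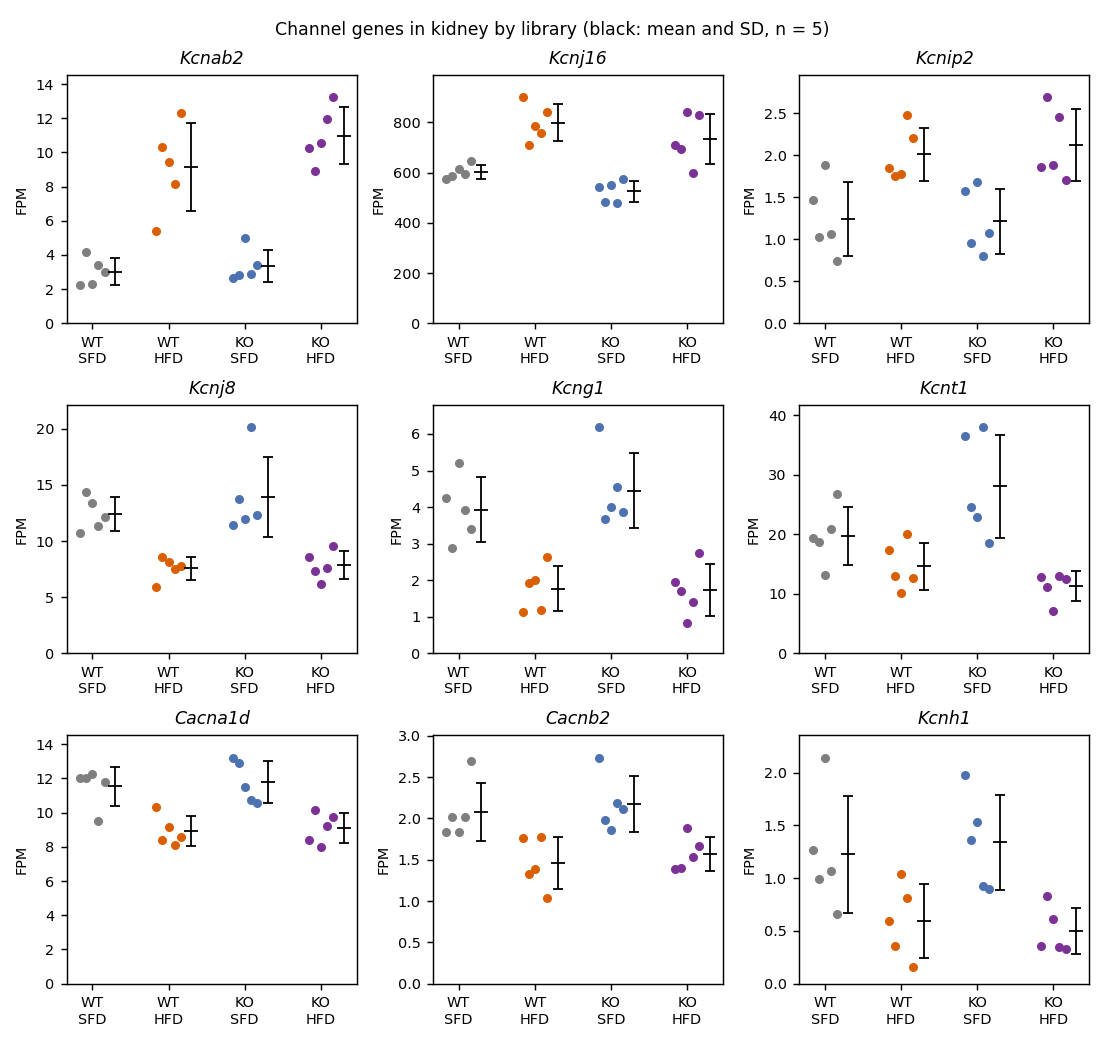
Level of 9 channel genes in each kidney library (FPM, linear axes from 0), by genotype and diet; coloured points are libraries and the black mark is the mean with SD, n = 5. Kcnab2 of all HFD kidneys lay above all SFD kidneys, and Kcnj8 of all HFD kidneys lay below all SFD kidneys.

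Kcnj8, the pore of the ATP-sensitive channel of vascular smooth muscle and pericytes, fell under HFD. It had 10.7, 14.4, 13.4, 11.4 and 12.2 FPM in WT SFD kidneys and 5.89, 8.55, 8.12, 7.54 and 7.75 FPM in WT HFD kidneys. In KO kidneys it had 11.5, 13.8, 12.0, 20.1 and 12.3 FPM under SFD and 8.62, 7.34, 6.21, 7.58 and 9.54 FPM under HFD. All HFD kidneys lay below all SFD kidneys. The log2 fold change was -0.71 in WT (standard error 0.15, adjusted p = 0.00622) and -0.83 in KO (standard error 0.15, adjusted p = 0.00172). Abcc9, the sulfonylurea receptor that completes this channel, also fell in KO kidneys (log2 fold change -0.62, adjusted p = 0.0356) and averaged over genotype (-0.40, adjusted p = 0.0286). Kcnj11, the pore of the ATP-sensitive channel in pancreas and heart, had 0.362 to 0.788 FPM in KO HFD and 0.578 to 1.43 FPM in KO SFD kidneys (log2 fold change -0.94, adjusted p = 0.038). These values rest on 7 to 34 reads per library, and the adjusted p was 0.0828 without the near-identical pair and ranged from 0.0131 to 0.116 when single replicates were left out.

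Kcng1, a silent subunit that modifies delayed rectifiers, fell in both genotypes. It had 4.26, 2.88, 5.20, 3.92 and 3.39 FPM in WT SFD kidneys and 1.14, 1.92, 2.00, 1.18 and 2.64 FPM in WT HFD kidneys. In KO kidneys it had 6.18, 3.67, 4.0, 4.54 and 3.86 FPM under SFD and 1.96, 1.71, 0.832, 1.4 and 2.75 FPM under HFD. The diet groups were separate in both genotypes. For Kcng1 the log2 fold change was -1.14 in WT (standard error 0.27, adjusted p = 0.0124) and -1.36 in KO (standard error 0.27, adjusted p = 0.0037). Kcnh1, an ether-a-go-go channel, fell in KO (-1.45, standard error 0.42, adjusted p = 0.041), with 0.332 to 0.827 FPM under HFD and 0.898 to 1.98 FPM under SFD. In WT it had a log2 fold change of -1.05 (adjusted p = 0.14), and averaged over genotype -1.25 (adjusted p = 0.00475). These values rest on 4 to 49 reads per library. Without the near-identical pair the KO value had an adjusted p of 0.095, and 7 of the 10 fits that left out 1 replicate had one above 0.05.

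Kcnt1 fell in KO kidneys. Its levels there were 36.5, 24.6, 22.8, 37.9 and 18.6 FPM under SFD and 12.8, 11.2, 7.09, 12.9 and 12.5 FPM under HFD, with no overlap. In WT kidneys they were 19.3, 18.6, 13.1, 20.9 and 26.7 FPM under SFD and 17.3, 13, 10.1, 20 and 12.7 FPM under HFD, and the groups overlapped. The log2 fold change was -1.31 in KO (standard error 0.23, adjusted p = 0.00111) and -0.43 in WT (standard error 0.23, adjusted p = 0.305). The difference between the genotypes, tested as an interaction, was -0.88 (95% interval -1.55 to -0.20, unadjusted p = 0.0132, adjusted p = 1.00), and is thus not shown.

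Among calcium channel genes, Cacna1d and the beta subunit gene Cacnb2 fell. Cacna1d had 9.51 to 12.3 FPM in WT SFD and 8.10 to 10.3 FPM in WT HFD kidneys, with overlap, and 10.5 to 13.2 FPM in KO SFD and 8.01 to 10.1 FPM in KO HFD kidneys, without. The log2 fold change was -0.37 in each genotype (standard error 0.10; adjusted p = 0.0313 in WT and 0.0324 in KO). Without the near-identical pair the adjusted p was 0.0682 in WT and 0.0899 in KO, and 8 of 10 fits in WT and 6 of 10 in KO that left out 1 replicate had an adjusted p above 0.05. Without the WT SFD kidney a18, which was lowest in podocyte markers (91.2 FPM in sum, group median 235 FPM), it was 0.0897 in WT and 0.0397 in KO. Averaged over genotype it was 0.0011 with all libraries and stayed below 0.05 in all 20 such fits. Cacnb2 ranged from 1.83 to 2.69 FPM in WT SFD, from 1.04 to 1.78 FPM in WT HFD, from 1.86 to 2.74 FPM in KO SFD and from 1.39 to 1.88 FPM in KO HFD kidneys (averaged log2 fold change -0.49, standard error 0.12, adjusted p = 0.0091). Kcnma1 had an averaged log2 fold change of -0.60 (adjusted p = 0.0491), which was 0.108 without the near-identical pair, 0.058 without a18 and above 0.05 in 15 of 20 fits that left out 1 replicate. Cacna2d1 did not pass (averaged log2 fold change 0.35, adjusted p = 0.191).

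**Figure D3:**
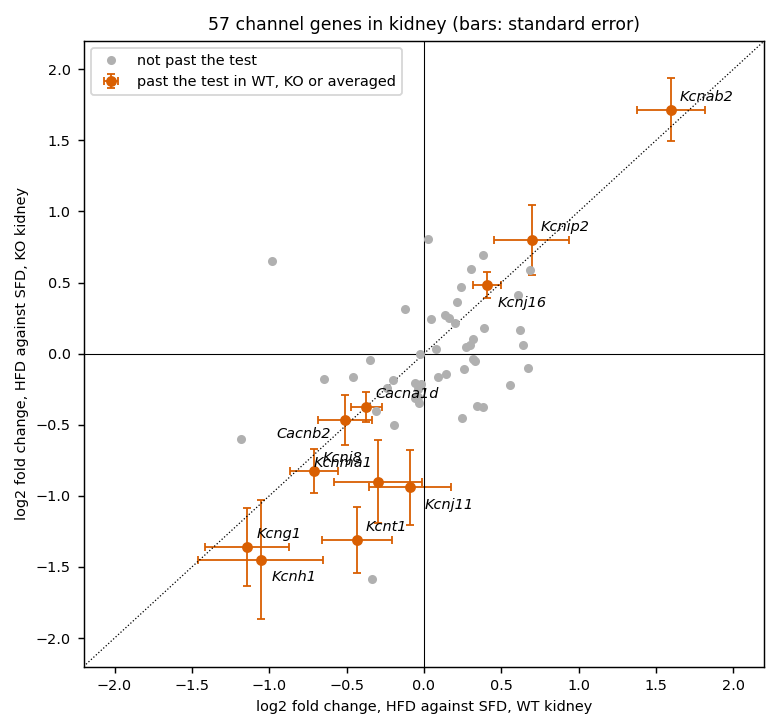
Log2 fold change of HFD against SFD in WT (horizontal) and KO kidneys (vertical) for 57 channel genes; bars are standard errors and the dotted line marks equal change. Kcnab2, Kcnip2 and Kcnj16 lie in the upper right, and Kcng1, Kcnh1 and Kcnj8 in the lower left.

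Of the 24 renal channel genes named for their tubular or vascular role, 17 were tested, and 3 passed in WT, 4 in KO and 5 in the average, beside 6.71%, 6.34% and 16.4% of all genes. These genes are members too and were chosen with earlier results known. Kcnk5, Kcnq1 and Kcne1 did not pass, with averaged log2 fold changes of -0.13, -0.01 and 0.15. Kcnk5 was 373 FPM in the WT SFD kidney a17 and 350 FPM in the KO SFD kidney a8, above the other SFD kidneys at 168 to 274 FPM. The same kidneys and the KO SFD kidney a9 had raised immediate-early genes, whose summed level reached 1755 FPM in WT SFD and 1923 FPM in KO SFD, against medians of 71.8 and 76.9 FPM. The part of these genes in the Kcnk5 levels was not tested. Without the 3 kidneys, 5 members passed in WT (8.77%, against 6.6% of all genes), 5 in KO (8.77%, against 3.57%) and 10 averaged over genotype (17.5%, against 13.1%). Without a18, a choice also made after seeing the data, these were 5 (8.77%, against 5.3%), 9 (15.8%, against 6.97%) and 10 (17.5%, against 16%). Of 10 immediate-early genes 7 were lower under HFD in the average, which includes the 3 SFD kidneys with raised levels. Their summed level had medians of 84.7 FPM in WT HFD and 87.9 FPM in KO HFD kidneys, above the SFD medians. Of 7 macrophage markers 6 were higher and 1 lower in the average, where 7.7% of all genes were higher and 8.7% lower.

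Genes of the same pathways that the symbol rule does not cover are given by list, beside 6.71% of all genes in WT, 6.34% in KO and 16.4% in the average. Of 20 tested genes of calcium stores and entry, 1 was lower in WT, 1 in KO, and 2 higher and 4 lower in the average (5% in each genotype, 30% in the average). Trpv4, a calcium-permeable cation channel of the tubule, fell in WT (log2 fold change -0.45, adjusted p = 0.000207) and KO (-0.33, adjusted p = 0.00314). Orai1, a pore of store-operated entry, fell by 0.47 on the log2 scale in the average. Of its sensors, Stim1 rose by 0.33 and Stim2 fell by 0.21. Of 11 tested channel partners, 0 passed in WT, 2 were lower in KO (18.2%), and 1 was higher and 3 lower in the average (36.4%). Hcn2, a hyperpolarization-activated channel, fell in KO by 1.17 on the log2 scale. In the average Hcn2 fell by 0.85, while Hcn3 rose by 0.62. Of 22 renal salt and potassium handling genes, 0 passed in WT, 1 was lower in KO (4.55%), and 1 was higher and 2 lower in the average (13.6%), shares below those of all genes. Slc12a1, the loop diuretic-sensitive cotransporter, fell (averaged log2 fold change -0.41, adjusted p = 0.0133), while Slc12a3, the thiazide-sensitive cotransporter, rose (0.43, adjusted p = 0.033).

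Channel levels were also set against the cell marker content of individual kidneys. Over 19 kidneys, the near-identical pair averaged, 684 pairs of member and score were tested, and 55 passed after Benjamini-Hochberg adjustment, 10 of them with the distal convoluted tubule score that separates the diets. The permutations ran over both diets together, so that each p also reflects any diet shift that a member and a score share. An r of at least 0.6 in size was found in 9.65% of these pairs, and in 7.97% of pairs of any tested gene and score, so that the count is not read as a feature of channel genes. Of these, 4 also held by rank, without the 2 farthest kidneys and in sign within each diet. Kcnt1 followed the thick ascending limb score (r = 0.828, permutation p = 2e-05, adjusted p = 0.00456, rho = 0.812, permutation p = 5e-05), also within SFD (r = 0.814, n = 10) and HFD (r = 0.535, n = 9), and r was 0.824 without the 2 farthest kidneys. The summed thick ascending limb level was 3167 to 4207 FPM in KO HFD and 4201 to 5747 FPM in KO SFD kidneys. Of its markers, Slc12a1 and Egf fell under HFD in KO by edgeR's test (log2 fold changes -0.62 and -0.59, adjusted p = 0.0191 and 0.0168). The part of these markers in the fall of Kcnt1 was not tested. Kcng1 ran opposite to the distal convoluted tubule score within HFD (r = -0.823, n = 9), while r was -0.376 within SFD (n = 10). Kcnj16 ran opposite to the principal cell score (r = -0.858, permutation p = 1e-05, the smallest that 100000 permutations give, rho = -0.825, permutation p = 2e-05, adjusted p = 0.00342). Without the 2 farthest kidneys r was -0.867, within SFD -0.648 and within HFD -0.761. The principal cell score reached at most 0.31 in SFD and 0.07 in HFD kidneys. Kcnj8 ran with the principal cell score (r = 0.745, permutation p = 0.00031, rho = 0.714, permutation p = 0.00092, adjusted p = 0.0118). Without the 2 farthest kidneys r was 0.811, but within SFD it was 0.28 and within HFD 0.537. No member was related to the clock score.

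In aorta, diet changed no channel gene past the threshold. By edgeR's quasi-likelihood test, 0 of 55 members tested passed for HFD in WT (background 0.0132%), in KO (0%) or averaged over genotype (0.0529%). At an unadjusted p under 0.05 were 3, 4 and 6 members (2.61%, 4.56% and 6.7% of all genes). DESeq2's Wald test called 1 member in WT, 0 in KO and 1 in the average, Cacna2d3 in both. The share of all genes that DESeq2 called is not given here, so nothing is read from these counts. Members varied between libraries by a median biological coefficient of 31.3%, against 23.1% for all genes, and one member, Cacna1e, was too low to be tested.

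Cacna2d3, an auxiliary calcium channel subunit, had the smallest p. It had 8.92, 6.24, 11.2, 8.44 and 8.95 FPM in WT SFD aortas and 4.88, 5.55, 4.84, 5.64 and 4.80 FPM in WT HFD aortas, which did not overlap; 0.41% of all genes showed such a separation. In KO aortas it had 7.20, 8.61, 7.50, 9.24 and 5.5 FPM under SFD and 6.23, 7.31, 7.33, 6.24 and 6.91 FPM under HFD, which overlapped. The log2 fold change in WT was -0.76 (standard error 0.15, adjusted p = 0.238), and that in KO was -0.16 (standard error 0.15, adjusted p = 0.987). The interaction was 0.60 (95% interval 0.15 to 1.05, unadjusted p = 0.0113, adjusted p = 1.00). In DESeq2 the WT value had an adjusted p of 0.00627. By edgeR's test that p was 0.65 without both near-identical libraries, and 0.0714 to 0.748 when single replicates were left out. In KO aortas the diet groups did not overlap for 2 members (background 0.721%), Kcnh3, an ether-a-go-go channel, and Kcnk5, with log2 fold changes of 1.16 and -0.98 and standard errors of 0.36 and 0.40 (adjusted p = 0.987 for both). Kcnf1, a silent subunit, had 1.00 on the log2 scale in the average (standard error 0.32, adjusted p = 0.487) and Kcnip4, an accessory subunit, 0.25 (standard error 0.07, adjusted p = 0.46). In WT, Cacnb4 had -0.41 (adjusted p = 1.00). White adipocyte markers summed to 78.3 to 336 FPM in WT SFD, 11.5 to 78.5 FPM in WT HFD, 36.4 to 150 FPM in KO SFD and 31.1 to 43.3 FPM in KO HFD aortas. Of these 6 markers, 1 was lower averaged over genotype, Cfd, which fell by 2.44 on the log2 scale (adjusted p = 0.0356). Cacnb4 ran with their score over 19 aortas (r = 0.692, permutation p = 0.00123, adjusted p = 0.021, rho = 0.567, permutation p = 0.0126), but r was 0.386 without the 2 farthest. The part of these markers in the aortic diet values was not tested.

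Kcnmb1 had 285 to 348 FPM in WT SFD, 291 to 401 FPM in WT HFD, 262 to 314 FPM in KO SFD and 266 to 386 FPM in KO HFD aortas. Its averaged log2 fold change for HFD was 0.08 (95% interval -0.08 to 0.24). Kcnma1 had 0.13 (-0.20 to 0.46), Cacna1c -0.01 (-0.38 to 0.36) and Kcnj8 -0.12 (-0.32 to 0.07). All 22 vascular channel genes of the panel were tested, and 0 passed in any comparison. For HFD averaged over genotype, 1 of the 22 had a 95% interval that left out 0, Kcna5, a delayed rectifier of smooth muscle (log2 fold change 0.66, interval 0.01 to 1.31, adjusted p = 0.743). Their averaged log2 fold changes for HFD ran from -0.41 to 0.66.

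**Figure D4:**
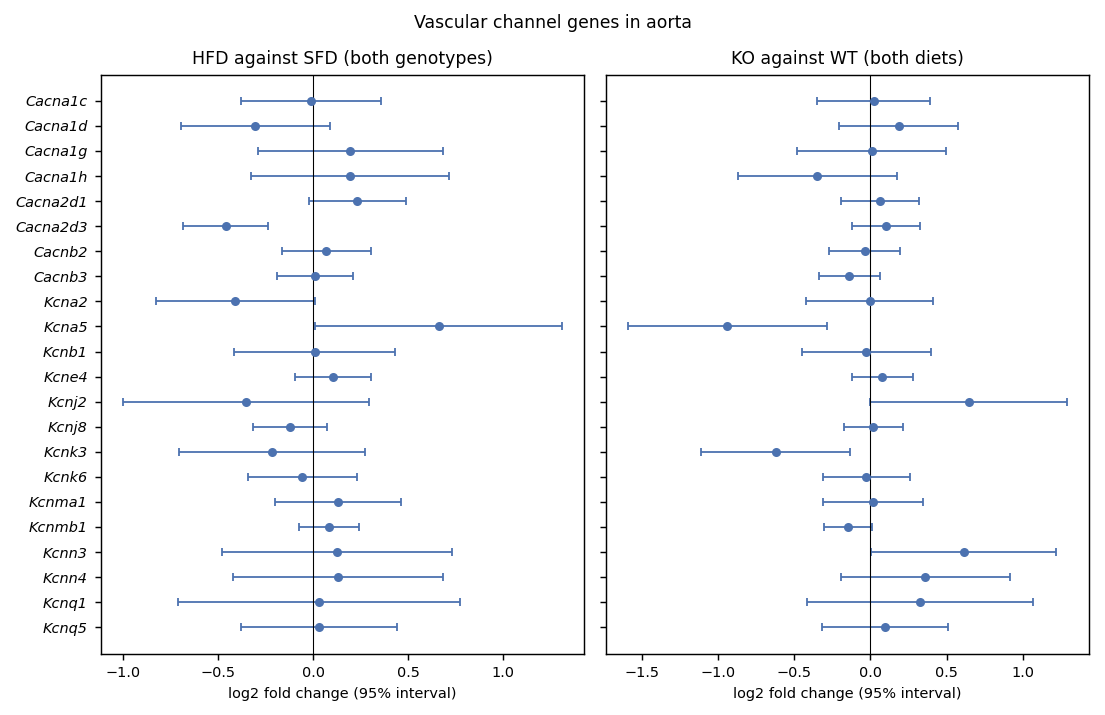
Log2 fold change with 95% interval of the vascular channel genes reported here and Cacna2d3 in aorta, for HFD against SFD (left) and KO against WT (right). Intervals of Kcnmb1 and Kcnj8 are narrow around 0, whereas those of Kcna5 and Kcnj2 are wide.

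Deletion of endothelial EGFR changed no channel gene past the threshold in either tissue. In aorta, 0 of 55 members passed in KO against WT under SFD (background 0%), under HFD (0%) or averaged over diet (0.0198%). Without the near-identical aortas, which are of opposite genotype, 0 members passed as well, while 0.138% of all genes (21) did under HFD and 0.859% (131) averaged over diet. Lymphoid markers summed to 110 FPM in a KO HFD and 59.3 FPM in a KO SFD aorta, R-16 and R-11, and to at most 12.1 FPM in WT aortas. Without these 2 aortas, a choice made after seeing the data, 0 members and 0 of all genes passed in each genotype comparison. With all aortas, 0, 5 and 9 had an unadjusted p under 0.05 (2.28%, 5.85% and 8.78% of all genes). In kidney, 0 of 57 passed (0% in each), and 6, 2 and 1 had such a p (2.67%, 3.42% and 4.82%). The interaction of KO and HFD passed for 0 members in either tissue, with 2 in aorta and 5 in kidney at an unadjusted p under 0.05 (0.84% and 1.79% of all genes). DESeq2 also gave 0 in each of these comparisons. Kcna5 had 1.48 to 4.48 FPM in WT SFD, 2.82 to 6.98 FPM in WT HFD, 0.35 to 2.97 FPM in KO SFD and 1.41 to 4.15 FPM in KO HFD aortas, and the groups overlapped (averaged log2 fold change -0.94, 95% interval -1.59 to -0.29, adjusted p = 0.424). Kcnk3, a leak channel, had -0.62 (adjusted p = 0.474), and Kcnn3, the small-conductance calcium-activated channel of endothelium, 0.61 (0.01 to 1.22, adjusted p = 0.563). The 8 endothelium markers had a median of 0.46 in the same comparison, with 0 past the test, and summed to 393 to 1669 FPM in WT and 680 to 1998 FPM in KO aortas. Their part in the Kcnn3 value was not tested. Of 8 smooth muscle markers, 6 were tested and 0 passed (median -0.18), and they summed to 33229 to 49309 FPM in WT and 30208 to 49388 FPM in KO aortas. Kcna5 ran with the smooth muscle score (r = 0.67, permutation p = 0.00151, adjusted p = 0.023, rho = 0.705, permutation p = 0.00108). Without the 2 farthest aortas r was 0.663 (adjusted permutation p = 0.051). Kcnk3 ran opposite to the endothelium score (r = -0.65, permutation p = 0.00276, adjusted p = 0.0332, rho = -0.584, permutation p = 0.0096). Here r was -0.427 without the 2 farthest aortas (adjusted permutation p = 0.283). Whether these markers had a part in the Kcna5 and Kcnk3 values was not tested. In kidney, Kcnk3 had 3.16 and 4.07 FPM in the WT SFD replicates a16 and a19 and 0.644 to 0.827 FPM in the other 3 of that group. Brown adipocyte markers summed to 36.8 and 88.7 FPM in these kidneys and to 13.9 to 20.03 FPM in the other 3, and their part in the Kcnk3 values was not tested. The log2 fold change of renal Kcnk3 in KO against WT under SFD was -1.45 (standard error 0.44, adjusted p = 1.00). Averaged over diet, renal Kcnj16 had -0.16 (standard error 0.06, adjusted p = 0.802) and Cacng7 -0.40 (standard error 0.20, adjusted p = 0.802). Under SFD, 2 of the 17 renal panel genes tested, Kcnt1 and Kcnj16, had a 95% interval that left out 0, and 0 passed. Under HFD, Kcnt2, a sodium-activated channel, had -0.61 and Cacna2d1 -0.57 in kidney (adjusted p = 0.814 each). In aorta, Kcnk13 had 0.93 averaged over diet (standard error 0.34, adjusted p = 0.469), and 0.63 to 1.05 when single replicates were left out. The 7 macrophage markers had a median of 0.46 in that comparison (0.26 to 1.09), with 0 past the test. Their part in the Kcnk13 value was not tested.

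Aortic channel levels were set against the marker content of the vessel wall in the same way. Over 19 aortas, 605 pairs of member and marker score were tested, 71 passed and 27 held under every check named above. An r of at least 0.6 in size was found in 11.6% of these pairs, a lower share than the 17.2% of pairs of any tested gene and score. Kcnk13, a leak channel, rose with the macrophage score (r = 0.927, permutation p = 1e-05, adjusted p = 0.000864, rho = 0.883, permutation p = 2e-05). Within SFD r was 0.942 (n = 9) and within HFD 0.94 (n = 10), and it was 0.856 without the 2 farthest aortas. These were R-16, named above for its lymphoid markers, and R-15. The summed macrophage markers reached 2356 FPM in the KO HFD aorta that also had the highest Kcnk13, 2.79 FPM, against 0.293 to 0.755 FPM in WT HFD aortas. Among these markers, Lyz2 reached 1875 FPM in aorta and every other at most 161 FPM. Kcnq1 rose with the endothelium score (r = 0.87, permutation p = 1e-05, rho = 0.809, permutation p = 8e-05, adjusted p = 0.000864). Its r was 0.694 without the 2 farthest aortas, 0.908 within SFD and 0.841 within HFD. Kcnn3 ran opposite to the smooth muscle score (r = -0.879, permutation p = 1e-05, rho = -0.861, permutation p = 1e-05, adjusted p = 0.000864). Its r was -0.85 without the 2 farthest aortas, -0.912 within SFD and -0.876 within HFD. Kcnn3 also rose with the endothelium score (r = 0.828, permutation p = 4e-05, rho = 0.744, permutation p = 0.00042, adjusted p = 0.00202), but without the 2 farthest aortas r was 0.64 (adjusted p = 0.0652). Kcnh1, Kcnt2, Cacna1a and Kcnj2 also ran opposite to smooth muscle, and Cacnb3, Kcnab3 and Kcnj12 ran with it. An r of at least 0.6 in size with smooth muscle was found in 23.6% of members and 39.0% of all genes. With endothelium the shares were 18.2% and 10.1%. Of the 27 pairs, 7 involved the skeletal muscle list and 7 the cardiac muscle list, whose summed levels were low, 4.29 to 12.4 FPM and 12.2 to 34.9 FPM. With these 2 scores, 29.1% and 27.3% of members had an r of at least 0.6 in size, against 42.8% and 34.6% of all genes. All scores come from the same libraries, so that these relations are not independent of each other.

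**Figure D5:**
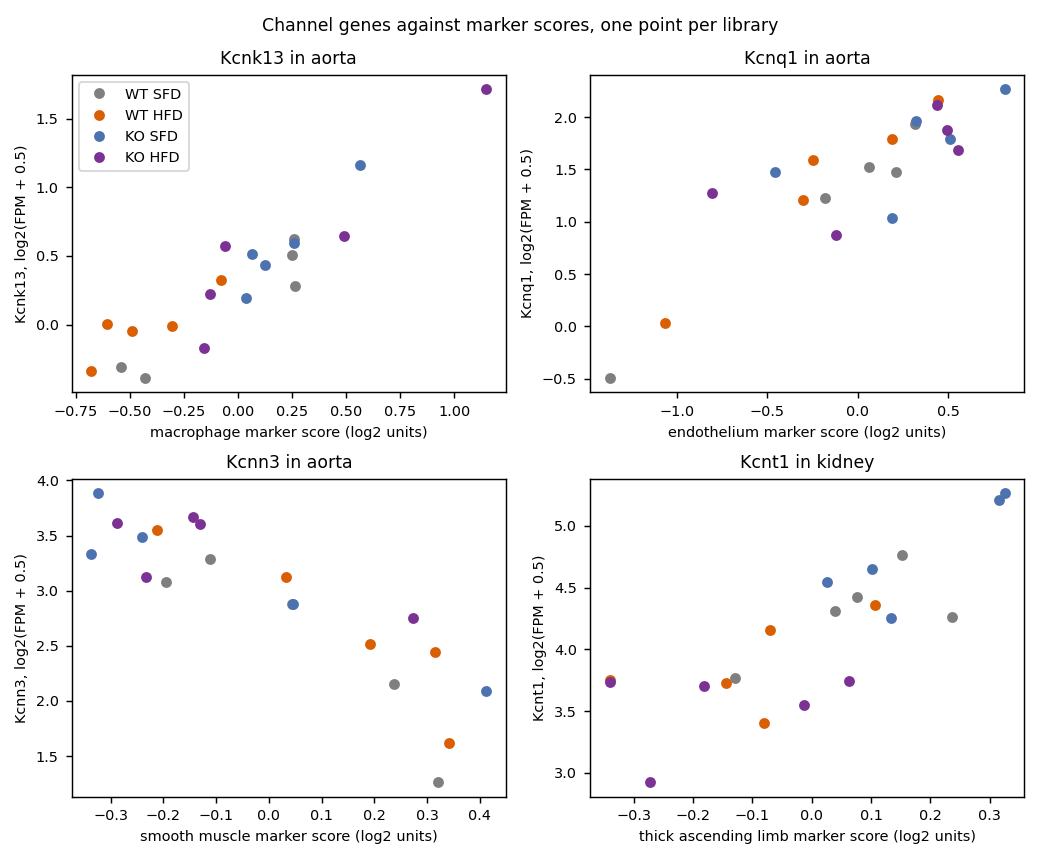
Level of 4 channel genes, as log2(FPM + 0.5), against the score of a marker list in the same library, coloured by group, for 20 libraries each. Kcnk13 rises with the macrophage score, Kcnq1 with endothelium and Kcnt1 with thick ascending limb, and Kcnn3 falls with smooth muscle.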

How the data were processed

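RNA of aorta and kidney tissue was sequenced as paired-end reads. The authors deposited raw counts per gene for 40 libraries, made with featureCounts after mapping to GRCm38 (HISAT2 2.1.0 in the submitters' processing notes, TopHat2 in the methods). The strand setting was not given in the sources used here. Members and lists were chosen with earlier results of these data known. Per tissue, 1 robust quasi-likelihood model of edgeR 4.0.16, run in R 4.3.3, covered all 20 libraries after filterByExpr and TMM scaling, with Benjamini-Hochberg adjustment over all genes; an adjusted p under 0.05 counted as changed. Comparisons were HFD against SFD and KO against WT within each level of the other factor and averaged, and their interaction. Labels name libraries, not animals, so p-values measure the spread between these libraries. Totals were 17520161 to 48833447 counts. Named genes were called members, the 3 with the smallest p per comparison, the 10 highest per kb, the vascular and tubular panels and members with separate diet groups; some items are not reported here. Exon lengths were those of all exons of a gene in GENCODE M21, merged. Alternatives were DESeq2 1.42.0, its size factors, edgeR's exact test, other filters, the study's thresholds (fold change over 1.5, 5 FPM) and leaving out libraries, 3 such exclusions being chosen after seeing the data. Marker correlations used 100000 permutations over both diets together.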

Additional observations from a re-analysis of the deposited data

Results flagged for a closer look

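In groups of 5, 72 sets of values were examined for a library whose gap to its nearest neighbour exceeds Dixon's 95% critical value, and 9 did, where chance gives about 3.6. Among the channel genes, Kcnj8 in the KO SFD kidney a9 was 20.1 FPM, with the other 4 at 11.5 to 13.8 FPM. Cacna1d in the WT SFD kidney a19 was 9.51 FPM, below the others at 11.8 to 12.3 FPM. Cacnb2 in the WT SFD kidney a20 was 2.69 FPM, above the others at 1.83 to 2.02 FPM. The summed channel level of the WT HFD aorta R-10 was 2247 CPM.

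Total counts stood apart in 5 libraries. The aortas R-1 and R-12 held 36419598 and 36452741 counts, and the kidneys a1 and a12 held 48788716 and 48833447. These are the near-identical pairs. The WT SFD kidney a16 held 31369285 counts.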

How the results depend on the processing

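No paired analysis was possible because the labels number the libraries without repeating a number between groups. Over all alternatives, 305 of 318 counts stayed within 1.5 times their value, 1171 of 1236 single-gene values kept their side of the threshold, and none reversed. In KO kidneys under HFD, 8 members passed, but 5 passed without a filter on low counts, 5 without both near-identical libraries, 5 without the kidneys with raised immediate-early genes (chosen after seeing the data) and 3 by the study's thresholds; the cause was not tested. By those thresholds 2 passed in WT kidneys and 3 averaged over genotype. DESeq2's Wald test called 1 member in WT aortas and 1 in aortas averaged over genotype. Without the 2 farthest libraries, 41 relations to marker scores passed in aorta and 5 in kidney. Leaving out single replicates gave 4 to 5 members in WT kidneys, 5 to 8 in KO kidneys and 9 to 12 averaged; every count of 0 stayed at 0. Kcnab2, Kcnj8, Kcnj16 and Kcng1 passed an adjusted p of 0.05 in both genotypes in each alternative fit. The thresholds of the study also ask for fold and level and were scored as counts only. Low counts (4 to 49 reads for Kcnh1 and 7 to 34 for Kcnj11 in kidney) limit the precision of the lowest members.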

Other observations

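Long non-coding RNAs that share a symbol with a channel gene were outside the rule. Kcnq1ot1, transcribed antisense within Kcnq1, had a mean of 8.0 CPM in aorta (4.61 to 11.4) and 4.92 CPM in kidney (3.85 to 7.03). Kcnd3os had 0.445 CPM in aorta and 0.251 CPM in kidney. Kcnmb4os1, Kcnmb4os2 and Kcnab3os were each at or below 0.034 CPM. As the strand setting was not given, reads of these genes and of their channel partners may not be told apart where exons overlap.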
